A study of Rattus norvegicus with 9 samples.

Results

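Matrix metalloproteinases (MMPs), ADAMTS proteases, the ADAMTS-like proteins and the tissue inhibitors of metalloproteinases (TIMPs) were examined in rat bone. Members were taken by gene symbol alone, as every gene of the count table whose symbol starts with Mmp, Adamts, Adamtsl or Timp followed by a digit. This gave 50 of 23026 genes, which are 22 Mmp symbols, 19 Adamts, 5 Adamtsl and 4 Timp. The set of 22 includes Mmp24os, an antisense-named gene at the Mmp24 locus that belongs to no protease family.

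Bone RNA was sequenced from 3 groups of female Sprague–Dawley rats with 3 libraries each, from separate biological replicates by the study's methods, and all rats were 8 weeks old at purchase. The Sham group lost adipose tissue near the ovary in place of the ovaries, while rats of both other groups underwent bilateral ovariectomy. From 6 weeks after surgery, OVX-AS-IV-High rats received astragaloside IV (AS-IV), a saponin of Astragalus root, at 80 mg/kg by gavage for 8 weeks. Sham and OVX rats received the vehicle sodium carboxymethyl cellulose, which the study's methods give at 1% throughout. For it the labels give 1%, 2% and 3% in Sham replicates 1, 2 and 3 and 1% in OVX. By the study's methods AS-IV was prepared in the same vehicle at 1%. Whole bone RNA mixes bone, cartilage, marrow, fat and any adherent muscle, so fewer cells of a type and less RNA per cell cannot be told apart.

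MMPs are zinc-dependent enzymes that cut collagens and other matrix proteins, and most are secreted as inactive precursors. ADAMTS proteases add thrombospondin repeats to a metalloprotease domain and process proteoglycans, procollagens and von Willebrand factor, while ADAMTS-like proteins resemble them without the catalytic domain and bind microfibrils of the matrix. TIMPs block the active site of these enzymes. In bone, collagenases and gelatinases serve the removal of cartilage and osteoid during growth and remodelling.

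Several MMP genes lie side by side on rat chromosome 8, and 8 members sit in that cluster in the order Mmp13, Mmp12, Mmp1b, Mmp3, Mmp10, Mmp8, Mmp27 and Mmp7. Mmp1 and Mmp20 of the same cluster were not analysed here. The 250 bases before the start of 5 of these genes are shown. Several genes of the cluster, but not all, carry like promoter motifs and yet differ widely in level. Sequences are from RefSeq on the build GRCr8, plus strand, 5′ to 3′. Capitals mark TGANTCA, the binding motif of AP-1, TATAAA or its reverse complement TTTATA, the TATA box, and TGTGGT or its reverse complement ACCACA, a motif of RUNX factors.
Mmp13 (chr8:12782579-12782828): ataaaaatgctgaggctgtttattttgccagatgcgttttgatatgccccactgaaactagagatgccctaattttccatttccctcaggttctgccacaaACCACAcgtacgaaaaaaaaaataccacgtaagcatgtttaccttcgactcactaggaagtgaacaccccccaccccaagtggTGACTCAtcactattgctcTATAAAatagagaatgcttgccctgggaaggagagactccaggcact
Mmp3 (chr8:12925031-12925280): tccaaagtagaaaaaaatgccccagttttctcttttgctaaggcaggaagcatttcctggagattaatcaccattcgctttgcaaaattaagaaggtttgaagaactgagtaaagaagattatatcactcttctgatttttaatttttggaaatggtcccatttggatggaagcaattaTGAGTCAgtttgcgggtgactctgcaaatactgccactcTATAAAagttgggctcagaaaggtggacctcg
Mmp10 (chr8:12974457-12974706): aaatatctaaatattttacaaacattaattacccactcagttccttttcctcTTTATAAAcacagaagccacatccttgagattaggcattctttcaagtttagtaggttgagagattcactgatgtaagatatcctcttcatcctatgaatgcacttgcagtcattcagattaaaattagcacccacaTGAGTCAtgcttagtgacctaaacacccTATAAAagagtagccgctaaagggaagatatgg
Mmp8 (chr8:13008640-13008889): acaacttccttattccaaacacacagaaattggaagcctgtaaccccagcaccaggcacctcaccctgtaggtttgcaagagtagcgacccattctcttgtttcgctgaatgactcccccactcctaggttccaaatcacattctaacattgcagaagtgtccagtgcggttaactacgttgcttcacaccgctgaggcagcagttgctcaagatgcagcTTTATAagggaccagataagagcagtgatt
Mmp7 (chr8:13132793-13133042): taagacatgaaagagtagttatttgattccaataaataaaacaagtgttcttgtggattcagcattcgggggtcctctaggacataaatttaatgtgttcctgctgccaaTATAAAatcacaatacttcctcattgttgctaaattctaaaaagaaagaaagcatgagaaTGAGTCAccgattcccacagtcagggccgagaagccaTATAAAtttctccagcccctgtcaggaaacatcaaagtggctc
The AP-1 motif lay 66 bases before the start in Mmp13, 71 in Mmp3, 61 in Mmp10 and 80 in Mmp7. A TATA motif followed it at 47, 32, 33 and 43 bases before the start. Mmp8 held a TATA motif at 30 bases and no match to TGANTCA. Mmp13 also held ACCACA 149 bases before its start. Of the cluster members not shown, Mmp12 held an AP-1 motif at 87 bases and a TATA motif at 39. Mmp1b held ACCACA at 112 bases and neither of the other motifs, and Mmp27 held none of them.

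RefSeq windows from 250 bases before to 50 bases after a start were found for 38 of the 50 members, in 48 windows. An AP-1 motif stood in the windows of 5 members, Mmp3, Mmp7, Mmp10, Mmp12 and Mmp13, which all belong to the cluster, and in 7.33% of all 33469 windows. A TATA motif stood in those of 12 members and in 14.2% of all windows. The same 5 members held both motifs, as did 1.36% of all windows. The RUNX motif stood in Mmp13 and Mmp1b and in 17.3% of all windows. These matches are letters in a window and no measured binding.

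Levels in the cluster ran from near 0 to the top of the families. Levels are compared in FPKM, a unit scaled for gene length and library depth. Mmp8, the neutrophil collagenase, had the highest mean of all members at 462 FPKM over 9 libraries. Mmp13, the collagenase of hypertrophic chondrocytes and osteoblasts, followed at 295 FPKM, and their libraries overlapped. Mmp3, a stromelysin, had 3.30 FPKM, Mmp12, the macrophage elastase, 0.613 FPKM and Mmp10, a further stromelysin, 0.463 FPKM. Mmp7 (matrilysin) had at most 1 count in any library and Mmp1b, an interstitial collagenase, at most 2.

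**Figure D1:**
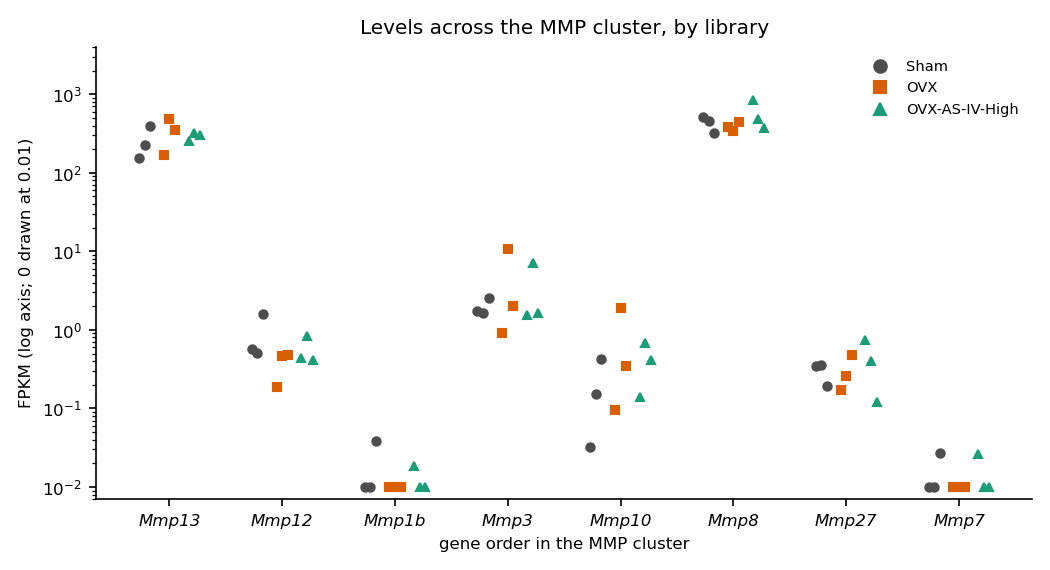
FPKM (log axis) of the 8 members of the MMP cluster on chromosome 8, in gene order, with 1 point per library and a value of 0 drawn at 0.01. Mmp13 and Mmp8 stand at means of 295 and 462 FPKM, and Mmp3 and Mmp10 each show the same OVX library and the same OVX-AS-IV-High library on top.

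Mmp3 and Mmp10 were high in the same libraries. Mmp3 had 116, 107 and 170 counts across Sham, 61, 723 and 136 across OVX, and 108, 482 and 109 across OVX-AS-IV-High. Mmp10 had 2, 9 and 26 counts across Sham, 6, 119 and 22 across OVX, and 9, 43 and 26 across OVX-AS-IV-High. Replicate 2 was highest for both genes in both ovariectomized groups, while all groups overlapped. It was also highest there for Mmp13 of the cluster and for Mmp2 and Mmp14 outside the cluster. Whether motifs or gene order bear on this was not tested. The log2 fold change (log2FC) of OVX over Sham was 1.14 ± 0.86 (SE) for Mmp3 and 1.88 ± 1.10 for Mmp10 (adjusted p = 0.512 and adjusted p = 0.4, edgeR), and neither had an unadjusted p under 0.05. Without OVX replicate 2 the log2FC of Mmp3 was -0.47 and that of Mmp10 was 0.12.

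A few members carried most of the signal. The 9 libraries held between 34874880 and 37298250 counts each, and a gene at 3 counts or fewer is at the limit of detection. Of the 50 members, 46 had enough counts to be tested. Mmp1b, Mmp7 and Adamts19 had at most 3 counts in every library, and Mmp21 at most 5. Mmp8, Mmp13 and Mmp9, the gelatinase of osteoclasts and neutrophils, together made up 87.5% to 94.6% of the summed FPKM of the 21 MMP genes (Mmp24os left out). Timp2 (76.7 FPKM) and Timp3 (43.8 FPKM) completed the 5 highest members, ahead of the gelatinase Mmp2 (38.7 FPKM) and Timp1 (34.1 FPKM). Timp3 and Mmp2 overlapped across libraries, as did Mmp2 and Timp1. The ADAMTS-like genes lay far lower, between 0.287 FPKM for Adamtsl1 and 4.28 FPKM for Adamtsl4. So did the ADAMTS proteases, at 3.90 FPKM (Adamts1) or less, apart from Adamts10 at 26.2 FPKM.

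**Figure D2:**
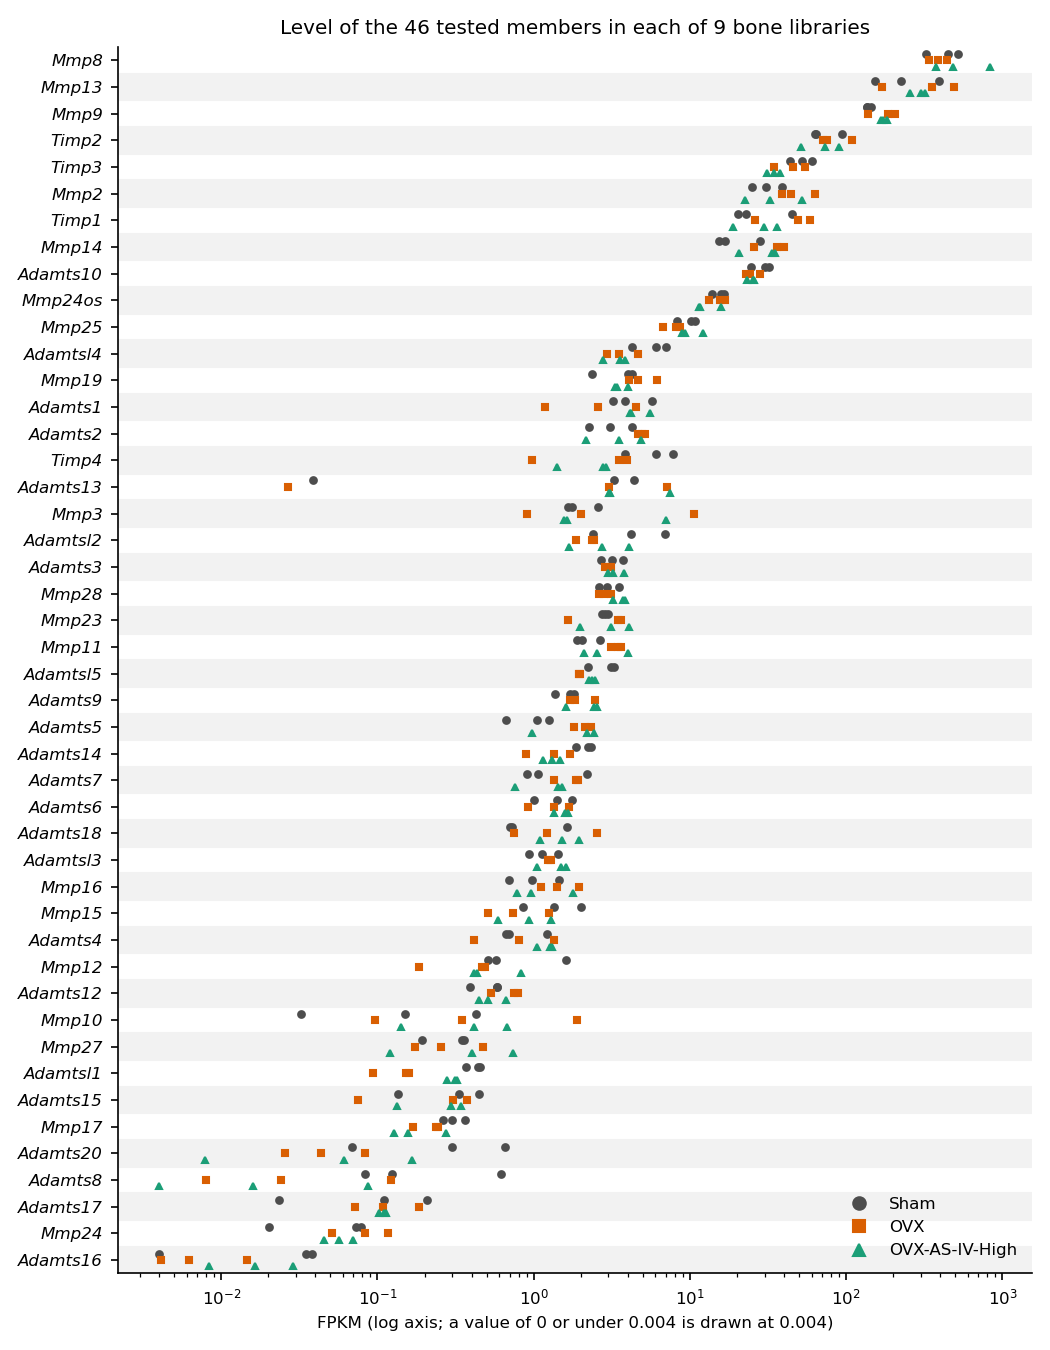
FPKM (log axis) of the 46 tested members in each of the 9 libraries, ordered by their mean, with values under 0.004 drawn at 0.004. Mmp8, Mmp13 and Mmp9 lead with means of 462, 295 and 163 FPKM, and Adamts13 splits into libraries near 0 and libraries at 3.03 FPKM or more.

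Summed by family, the libraries of Sham and OVX did not overlap for the ADAMTS-like genes and overlapped for the others. The MMP sum was 906 ± 42.5 FPKM in Sham, 1016 ± 198 across OVX and 1126 ± 191 across OVX-AS-IV-High (mean ± SD, n = 3). The ADAMTS sum was 53.2 ± 5.25, 51.2 ± 5.81 and 52.6 ± 1.80 FPKM. The TIMP sum was 161 ± 22.2, 178 ± 27.6 and 136 ± 31.1 FPKM. The ADAMTS-like sum was 14.7 ± 4.41 FPKM in Sham against 9.28 ± 0.571 across OVX and 10.3 ± 1.36 across OVX-AS-IV-High. By library it was 19.0, 14.9 and 10.2 FPKM in Sham and 9.24, 9.87 and 8.73 across OVX, so only 10.2 against 9.87 kept them apart. The Sham sums fell in the order of the muscle markers described below. With 3 libraries against 3, the smallest two-sided p of an exact permutation test is 0.1, so sums were not tested and single genes were tested in the fit across all 16874 genes that passed the filter.

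Adamts13, the protease that trims von Willebrand factor, showed a switch-like pattern that did not follow the groups. It had 796, 582 and 7 counts across Sham, 559, 5 and 1333 across OVX, and 1413, 582 and 564 across OVX-AS-IV-High. Sham replicate 3 and OVX replicate 2 were near 0, and the highest library exceeded the lowest 295-fold in CPM (counts scaled to library size). Its groups overlapped in each comparison. Genes overlap at this locus in RefSeq, and whether the counting used strand is not given in the sources used here. Whether either bears on the Adamts13 counts was not tested.

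The comparison of OVX with Sham asks what loss of the ovaries changes. Most of the ADAMTS-like genes were lower in OVX, led by Adamtsl1, and the proteoglycanase Adamts5 was higher. An unadjusted p under 0.05 in edgeR was reached by 9 of 46 members (19.6%), against 16.4% of all genes tested. Of these, 3 were higher (Adamts5, Mmp11 and Mmp14), where 8.16% of all genes were higher, and 6 were lower (Adamtsl1, Adamtsl2, Adamtsl4, Adamtsl5, Adamts14 and Adamts20), where 8.28% of all genes were lower. For differentially expressed genes (DEGs) the study's results also ask for an absolute log2FC over 1 and its methods for one over 0.58, and the term DEG thresholds is used here for the first. They were passed by 4 members (8.70%, against 3.11% of all genes). These were Adamts5, higher (1.08% of all genes), and Adamts20, Adamtsl1 and Adamtsl2, lower (2.03% of all genes). With an absolute log2FC over 0.58 all 9 members passed (19.6%, against 6.96% of all genes). After Benjamini-Hochberg adjustment over all genes 0 members and 0% of all genes passed 0.05 in edgeR, and the smallest adjusted p of a member was 0.118. DESeq2 gave an adjusted p under 0.05 to 2 members, Adamtsl1 and Adamtsl5, and to 4.94% of all genes. The share of members at an unadjusted p under 0.05 moved with the setting. It was 43.5% with the replicate block (21.8% of all genes) and 30.4% in DESeq2 (18.7% of all genes). Without Sham replicate 3 it was 41.3% (25.2% of all genes), and without Sham replicate 1 it was 8.70% (12.2% of all genes). The number of members past the DEG thresholds was 2 without Sham replicate 1 (Adamtsl1 and Mmp12), where 2.67% of all genes passed, and 10 without Sham replicate 3, where 6.20% of all genes passed. With the muscle markers described below as a covariate it was again Adamtsl1 and Mmp12 that passed (2.16% of all genes), and Adamts5, Adamts20 and Adamtsl2 did not.

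Adamtsl1 (punctin-1), a secreted matrix glycoprotein, showed the clearest difference of all members. It had 152, 182 and 180 counts across Sham, 67, 65 and 40 across OVX, and 120, 138 and 132 across OVX-AS-IV-High. All OVX libraries were below all Sham libraries, and those of OVX-AS-IV-High lay between the other groups. OVX was lower than Sham with a log2FC of -1.65 ± 0.25 (SE; adjusted p = 0.118, edgeR). This was the 9th smallest p of all genes tested. The difference had an unadjusted p under 0.05 in all 20 alternative analyses. Its log2FC ran from -1.79 to -1.45 when single libraries were left out. In limma on log2(FPKM + 1), where the added 1 shrinks differences of a gene at this level, the log2FC was -0.32.

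The other ADAMTS-like genes were read against muscle content, because muscle markers varied between libraries. The summed CPM of 9 skeletal muscle markers was 8904, 6212 and 1546 in Sham, 3226, 1868 and 1541 across OVX, and 4645, 2028 and 538 across OVX-AS-IV-High. Sham replicates 1 and 2 thus held the most muscle RNA. Within Sham, neutrophil markers fell in the same order (15920, 14400 and 11460 CPM), and osteoclast markers rose (637, 1148 and 1857 CPM). The order of the Sham libraries is thus not particular to muscle. Which cell content bears on the members' values was not tested. With the log2 muscle sum added to the model as a covariate, the log2FC of Adamtsl1 was -1.67 (adjusted p = 0.0834, edgeR).

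Adamtsl2, a fibrillin-binding protein, had 964, 566 and 330 counts across Sham, 330, 267 and 346 across OVX, and 588, 397 and 236 across OVX-AS-IV-High. Its Sham libraries followed the order of the muscle sum, and the groups overlapped. The log2FC of OVX over Sham was -1.04 ± 0.40 (adjusted p = 0.249, edgeR). The unadjusted p was over 0.05 with the muscle covariate (log2FC -0.44) and without Sham replicate 1 (-0.62), OVX replicate 1 (-1.09) or OVX replicate 2 (-0.92). It was also over 0.05 in limma on log2(FPKM + 1) (-0.69) and log2(FPKM + 0.1) (-0.87).

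Adamtsl4, which takes part in anchoring microfibrils in the eye, had 1228, 1031 and 741 counts across Sham, 624, 836 and 534 across OVX, and 652, 694 and 495 across OVX-AS-IV-High. Only OVX replicate 2 reached into the Sham range, and the Sham libraries followed the order of the muscle sum. The log2FC of OVX over Sham was -0.66 ± 0.22 (adjusted p = 0.204, edgeR), and -0.44 with the muscle covariate (adjusted p = 0.319, edgeR), still at an unadjusted p under 0.05. An unadjusted p over 0.05 was found without Sham replicate 1 (log2FC -0.53) or OVX replicate 3 (-0.53).

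Adamtsl5, a further microfibril-associated member, had 532, 494 and 357 counts across Sham, 318, 329 and 325 across OVX, and 383, 399 and 403 across OVX-AS-IV-High. All OVX libraries were below all Sham libraries. The log2FC was -0.58 ± 0.16 (adjusted p = 0.166, edgeR) and -0.49 with the muscle covariate, still at an unadjusted p under 0.05. Adamtsl3 was the exception among the 5 genes, with a log2FC of 0.11 ± 0.20 (adjusted p = 0.809, edgeR). The median log2FC of the 5 ADAMTS-like genes was -0.66, against -0.01 for all genes tested.

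**Figure D3:**
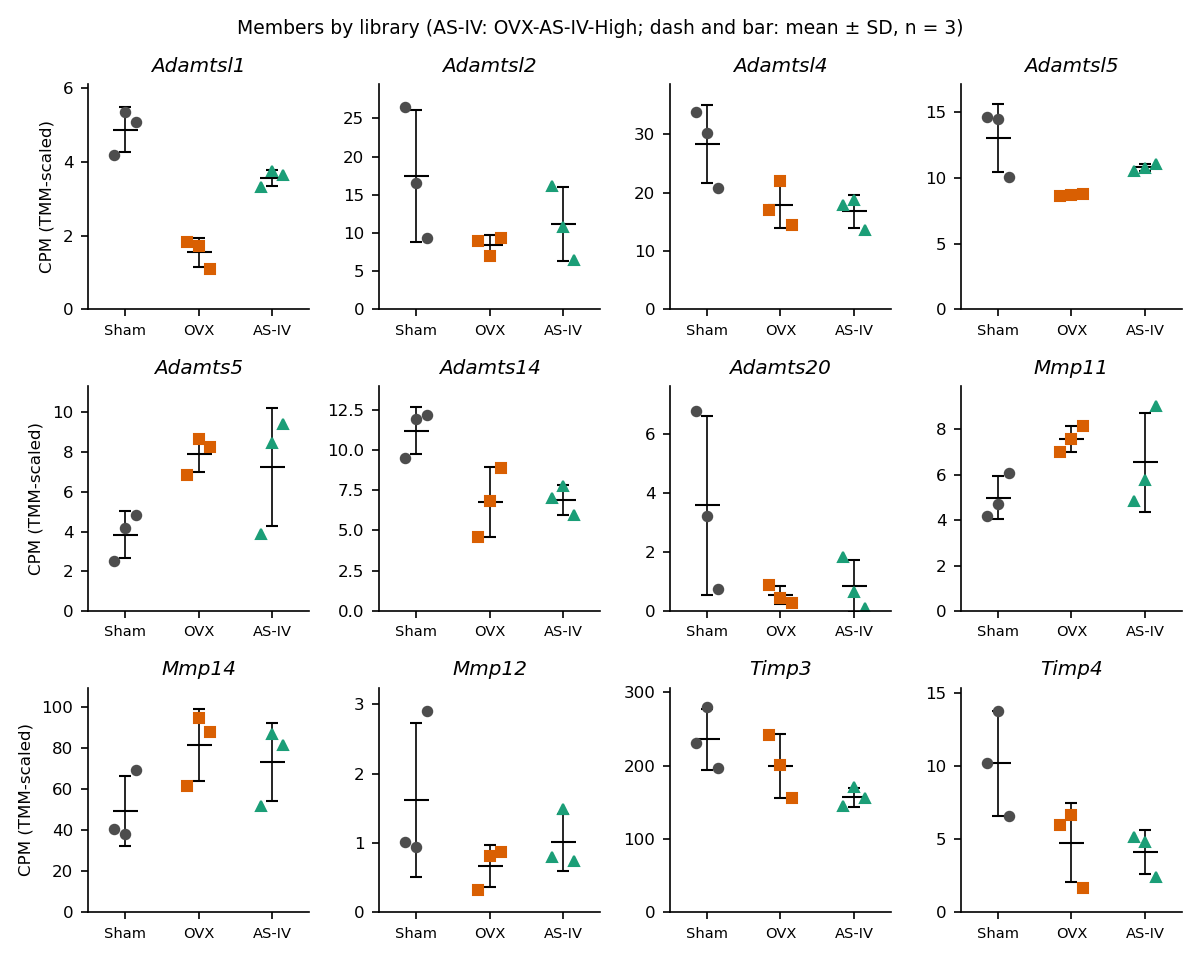
TMM-scaled CPM of 12 members by library, with the mean and SD of each group (n = 3) and vertical axes that start at 0, so that the SD bar of Adamts20 across OVX-AS-IV-High is cut at 0. The 3 OVX libraries of Adamtsl1 lie below those of both other groups, and those of Adamts5 lie above all Sham libraries.

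Among the ADAMTS proteases, Adamts5, the aggrecanase of cartilage, had 92, 142 and 172 counts across Sham, 252, 329 and 304 across OVX, and 141, 313 and 342 across OVX-AS-IV-High. All OVX libraries exceeded all Sham libraries, and OVX-AS-IV-High replicate 1 lay in the Sham range. The log2FC of OVX over Sham was 1.04 ± 0.35 (adjusted p = 0.206, edgeR), and without Sham replicate 1 it was 0.81 with an unadjusted p over 0.05. The summed CPM of 7 adipocyte markers was 349, 377 and 436 in Sham, 561, 723 and 710 across OVX, and 462, 744 and 747 across OVX-AS-IV-High, and thus stood low and high in much the same libraries. The part of adipocyte content in the result was not tested. Adamts4, the other main aggrecanase, had a log2FC of -0.04 ± 0.41 (adjusted p = 0.971, edgeR).

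Adamts14, an enzyme that removes the amino-terminal propeptide of procollagen, had 346, 406 and 432 counts across Sham, 168, 258 and 328 across OVX, and 254, 286 and 216 across OVX-AS-IV-High. Both ovariectomized groups lay below Sham in every library. The log2FC of OVX over Sham was -0.73 ± 0.24 (adjusted p = 0.207, edgeR), and the unadjusted p was under 0.05 in all 20 alternatives. Adamts2, the main procollagen N-proteinase, had 612, 812 and 1145 counts across Sham and 1265, 1428 and 1374 across OVX. These groups did not overlap, while the test gave a log2FC of 0.59 ± 0.29 (adjusted p = 0.339, edgeR) with an unadjusted p over 0.05. In 6 of the 20 alternatives, DESeq2 among them, the unadjusted p of Adamts2 was under 0.05.

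Adamts20, a versican-cleaving protease, had 247, 110 and 26 counts across Sham, 32, 17 and 10 across OVX, and 66, 24 and 3 across OVX-AS-IV-High. The order of libraries within each group was that of the muscle sum. The log2FC of OVX over Sham was -2.75 ± 1.01 (adjusted p = 0.235, edgeR), and -0.99 with the muscle covariate, at an unadjusted p under 0.05 in both. The unadjusted p was over 0.05 without Sham replicate 1 (log2FC -1.90), OVX replicate 2 (-2.64) or OVX replicate 3 (-2.43). Adamts1, a proteoglycanase induced by ovarian hormones in the follicle, had 507, 876 and 602 counts across Sham and 187, 732 and 417 across OVX, with overlap (log2FC -0.66 ± 0.41, adjusted p = 0.424, edgeR).

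Of the 18 tested MMP genes (Mmp24os left out), 2 were higher and 0 lower at an unadjusted p under 0.05. Of all genes tested, 8.16% were higher and 8.28% lower. Mmp14, the membrane-type enzyme that activates pro-MMP2, had 1480, 1306 and 2461 counts across Sham, 2265, 3605 and 3245 across OVX, and 1877, 3209 and 2968 across OVX-AS-IV-High. Sham replicate 3 exceeded OVX replicate 1, so the groups overlapped. The log2FC of OVX over Sham was 0.72 ± 0.28 (adjusted p = 0.248, edgeR). An unadjusted p over 0.05 was found without Sham replicate 1 (log2FC 0.60), Sham replicate 2 (0.58), OVX replicate 2 (0.60) or OVX replicate 3 (0.67). The summed CPM of 9 osteoblast and osteocyte markers was 1355, 1756 and 1865 in Sham and 1424, 2796 and 2770 across OVX, also highest in OVX replicates 2 and 3. Its part in the result was not tested.

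Mmp11 (stromelysin-3) had 153, 161 and 215 counts across Sham, 257, 287 and 300 across OVX, and 176, 213 and 328 across OVX-AS-IV-High. All OVX libraries exceeded all Sham libraries. The log2FC was 0.60 ± 0.25 (adjusted p = 0.284, edgeR). The unadjusted p was over 0.05 with the muscle covariate (log2FC 0.35) and when any of Sham replicates 1 and 2, the 3 OVX libraries or OVX-AS-IV-High replicate 2 was left out (0.48 to 0.65).

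The abundant MMPs did not reach an unadjusted p under 0.05 in edgeR. Mmp9 had 14437, 14201 and 15412 counts across Sham and 14845, 20247 and 22515 across OVX, with a log2FC of 0.31 ± 0.14 (adjusted p = 0.309, edgeR). Its unadjusted p was under 0.05 in 7 of the 20 alternatives, DESeq2 and limma among them. Mmp13 had 14342, 20253 and 36371 counts across Sham and 16092, 46609 and 34067 across OVX, a spread within each group larger than the log2FC of 0.36 ± 0.39 (adjusted p = 0.646, edgeR). Mmp8 had 44572, 37518 and 27618 counts across Sham and 33660, 29640 and 38882 across OVX (log2FC -0.17 ± 0.29, adjusted p = 0.782, edgeR).

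Other named MMPs did not reach it either. Mmp2, which Mmp14 activates, had 2708, 3239 and 4228 counts across Sham and 4867, 7089 and 4338 across OVX (log2FC 0.60 ± 0.30, adjusted p = 0.349, edgeR). Its lowest OVX library exceeded the highest Sham library by raw counts but not after scaling to CPM, so the groups overlapped. The unadjusted p of Mmp2 was under 0.05 in 6 of the 20 alternatives, DESeq2 among them. Mmp12 had 37, 32 and 103 counts across Sham and 12, 31 and 32 across OVX (log2FC -1.27 ± 0.57, adjusted p = 0.308, edgeR). It passed the DEG thresholds with the muscle covariate (log2FC -1.55, adjusted p = 0.257), in DESeq2 (-1.27, adjusted p = 0.221), without a filter, with a replicate block, and without Sham replicate 1 or 2. Without Sham replicate 3, which held 103 counts, its log2FC was -0.54. Mmp16, a membrane-type MMP, had a log2FC of 0.49 ± 0.36 (adjusted p = 0.488, edgeR).

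The libraries of OVX and Sham did not overlap in 8 members (17.4%, against 23.3% of all genes tested). Adamts2, Adamts5 and Mmp11 were higher, where 12.7% of all genes were higher. Adamts14, Adamtsl1, Adamtsl5, Mmp12 and Mmp17 were lower, where 10.6% of all genes were lower. Over the 46 tested members the median log2FC was -0.03, against -0.01 for all genes, and the median absolute log2FC was 0.51, against 0.22.

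The 4 TIMPs had log2FCs of both signs, and none had an unadjusted p under 0.05 in edgeR. Timp1, the secreted inhibitor induced by growth factors, had 672, 742 and 1489 counts across Sham and 883, 1686 and 2000 across OVX (log2FC 0.58 ± 0.38, adjusted p = 0.447, edgeR). Timp2, which also helps Mmp14 to activate pro-MMP2, had a log2FC of 0.18 ± 0.24 (adjusted p = 0.719, edgeR). Timp3, held in the matrix and an inhibitor of aggrecanases, had a log2FC of -0.24 ± 0.18 (adjusted p = 0.492, edgeR). Timp4 had 371, 469 and 235 counts across Sham and 220, 252 and 62 across OVX (log2FC -1.09 ± 0.50, adjusted p = 0.315, edgeR). It passed the DEG thresholds in DESeq2 (log2FC -1.10, adjusted p = 0.175), without a filter, with a replicate block (-1.23, adjusted p = 0.0674), in limma on log2(FPKM + 0.1) (-1.19), and without Sham replicate 3 (-1.32), OVX replicate 2 (-1.41) or OVX-AS-IV-High replicate 3 (-1.09). With the muscle covariate the log2FC of Timp4 was -0.67 (adjusted p = 0.521), and it was -0.69 without OVX replicate 3.

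**Figure D4:**
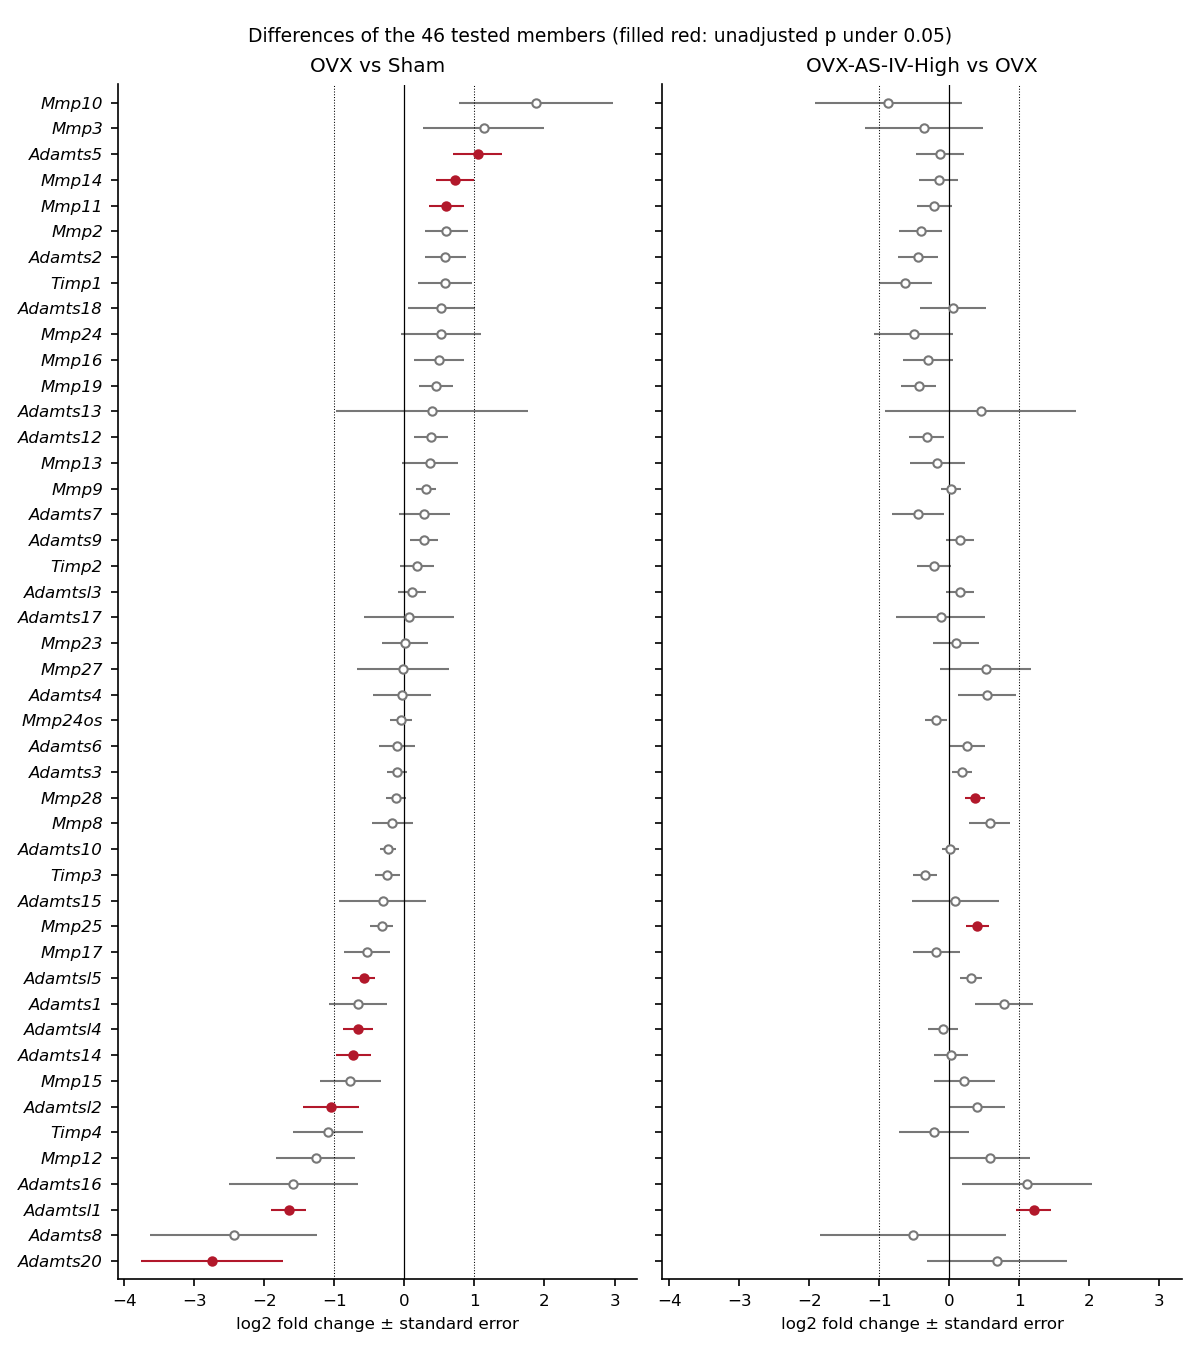
Fitted log2FC with its standard error for the 46 tested members in OVX vs Sham (left) and OVX-AS-IV-High vs OVX (right), ordered by the left panel, with filled red points for an unadjusted p under 0.05 and dotted lines at -1 and 1. In OVX vs Sham 9 members are red, while 3 are red in OVX-AS-IV-High vs OVX, of which Adamtsl1 at 1.20 is the only one past a dotted line.

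The comparison of OVX-AS-IV-High with OVX asks what AS-IV changes after ovariectomy, and it shares its OVX libraries with the comparison above. Adamtsl1 was higher with AS-IV, and so were, by less, Mmp25 and Mmp28. These 3 of 46 members (6.52%) had an unadjusted p under 0.05 in edgeR, against 6.45% of all genes tested. All 3 were higher (4.42% of all genes) and 0 were lower (2.03% of all genes). Adamtsl1 alone passed the DEG thresholds (2.17% of members, against 0.83% of all genes, with 0.456% higher and 0.373% lower), and it alone passed with an absolute log2FC over 0.58 (2.19% of all genes). After adjustment over all genes 0 members and 0% of all genes passed 0.05 in edgeR, and the smallest adjusted p of a member was 0.652. DESeq2 gave an adjusted p under 0.05 to 1 member, Adamtsl1, and to 0.219% of all genes. Without OVX replicate 2, Adamts1, Adamts4 and Adamtsl1 passed the DEG thresholds, as did 1.10% of all genes.

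Adamtsl1 had 120, 138 and 132 counts with AS-IV against 67, 65 and 40 across OVX, and no library overlapped. The log2FC was 1.20 ± 0.25 (adjusted p = 0.652, edgeR), the 7th smallest p of all genes. It had an unadjusted p under 0.05 in all 20 alternatives, with a log2FC from 1.01 to 1.34 when single libraries were left out. In limma on log2(FPKM + 1) the log2FC was 0.20. Since both differences of Adamtsl1 use the same OVX libraries, the direct comparison of OVX-AS-IV-High with Sham is given beside them, with a log2FC of -0.45 ± 0.24 (adjusted p = 0.369, edgeR) and no overlap between libraries.

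Mmp25, a membrane-anchored MMP of neutrophils, had 1441, 1328 and 1106 counts across Sham, 920, 1203 and 1132 across OVX, and 1704, 1307 and 1211 across OVX-AS-IV-High. All AS-IV libraries exceeded all OVX libraries. The log2FC was 0.40 ± 0.16 (adjusted p = 0.734, edgeR). This gene had an unadjusted p over 0.05 without OVX replicate 1 (log2FC 0.30) or OVX-AS-IV-High replicate 1 (0.23), and in limma on log2(FPKM + 1) (0.32) and log2(FPKM + 0.1) (0.35). Mmp8, also of neutrophils, had 74617, 42540 and 32580 counts with AS-IV and a log2FC of 0.57 ± 0.29 (adjusted p = 0.832, edgeR). The summed CPM of 9 neutrophil markers was 15920, 14400 and 11460 in Sham, 14560, 13760 and 18530 across OVX, and 20080, 17540 and 15940 across OVX-AS-IV-High. Its highest library, OVX-AS-IV-High replicate 1, was also the highest for Mmp8 and Mmp25, and the part of neutrophil content in these values was not tested.

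Mmp28 (epilysin), a secreted MMP of epithelia and other tissues, had 443, 494 and 415 counts across OVX and 597, 517 and 605 with AS-IV, without overlap. The log2FC was 0.37 ± 0.14 (adjusted p = 0.724, edgeR). The unadjusted p was over 0.05 without OVX replicate 1 (log2FC 0.37) or 3 (0.32) or OVX-AS-IV-High replicate 1 (0.34) or 3 (0.33), and in limma on log2(FPKM + 1) (0.26) and log2(FPKM + 0.1) (0.32). The libraries did not overlap in 5 members (10.9%, against 12.7% of all genes). Adamtsl1, Adamtsl5, Mmp25 and Mmp28 were higher (6.38% of all genes) and Mmp19, an MMP of stromal and vascular cells, was lower (6.36% of all genes). For Adamtsl5 the log2FC was 0.31 ± 0.16 (adjusted p = 0.844, edgeR), and for Mmp19 -0.44 ± 0.25 (adjusted p = 0.861).

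The inhibitors had negative log2FCs throughout, and none had an unadjusted p under 0.05. The values were -0.63 ± 0.38 for Timp1 (adjusted p = 0.882, edgeR), -0.22 ± 0.24 for Timp2 (adjusted p = 0.947), -0.35 ± 0.18 for Timp3 (adjusted p = 0.832) and -0.21 ± 0.50 for Timp4 (adjusted p = 0.976). Timp1 had 654, 1243 and 1010 counts with AS-IV against 883, 1686 and 2000 across OVX, so the groups overlapped. Libraries of OVX and OVX-AS-IV-High with the same replicate number deviated alike, though the sources used here give no pairing of rats. The values above are from the main fit, which uses no block. In the alternative fit with the replicate number as a block, 6 members had an unadjusted p under 0.05 (13.0%, against 7.76% of all genes in the same fit). The block added Timp1 (log2FC -0.58, adjusted p = 0.553), Adamts1 (0.96, adjusted p = 0.54) and Adamts2 (-0.52, adjusted p = 0.623). Mmp13 (log2FC -0.17 ± 0.39, adjusted p = 0.976) and Mmp2 (-0.41 ± 0.30, adjusted p = 0.921) did not pass in either fit. The median log2FC over members was 0.02, against -0.02 for all genes, and the median absolute log2FC was 0.32, against 0.15.

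The comparison of OVX-AS-IV-High with Sham, which uses the same libraries again, asks how treated ovariectomized bone stands to intact bone. Timp3, Timp4, Adamtsl4, Adamts14 and Adamts8 were lower in the treated group, and Adamts5 and Mmp9 were higher. These 7 members were 15.2% of those tested, against 17.6% of all genes at an unadjusted p under 0.05, with 9.17% of all genes higher and 8.48% lower. Adamts8 and Timp4, both lower (2.03% of all genes), passed the DEG thresholds (4.35% of members, against 3.15% of all genes, and 0 members higher, against 1.11%). With an absolute log2FC over 0.58 all but Mmp9 of the 7 passed, which are 6 members (13.0%, against 6.92% of all genes). In edgeR 0 members and 0% of all genes had an adjusted p under 0.05, with a smallest member value of 0.146. DESeq2 gave 2 members, Adamtsl4 and Timp3, and 5.98% of all genes. The number past the DEG thresholds was 0 without Sham replicate 2 (2.38% of all genes), 4 without Sham replicate 3 (5.02%) and 5 without OVX-AS-IV-High replicate 1 (5.48%). A single member passed without Sham replicate 1 (Adamts8; 2.82% of all genes), OVX replicate 2 (Timp4; 3.17%), OVX-AS-IV-High replicate 2 (Timp4; 2.52%) or OVX-AS-IV-High replicate 3 (Mmp17; 2.39%). With the muscle covariate it was also Mmp17 alone (2.58% of all genes).

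Timp3 had 8403, 9539 and 7000 counts across Sham, 8888, 7615 and 5731 across OVX, and 5271, 6295 and 5657 across OVX-AS-IV-High. All treated libraries lay below all Sham libraries, with OVX spread across both. The log2FC was -0.59 ± 0.18 (adjusted p = 0.153, edgeR), and the unadjusted p was under 0.05 in all 20 alternatives. Timp4, the inhibitor known from heart and muscle, had 186, 178 and 88 counts in OVX-AS-IV-High, all below Sham. The log2FC was -1.31 ± 0.50 (adjusted p = 0.231, edgeR). Its unadjusted p was over 0.05 with the muscle covariate (log2FC -0.80) and without Sham replicate 1 (-1.30), Sham replicate 2 (-1.02) or OVX-AS-IV-High replicate 3 (-1.03).

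Adamtsl4 had a log2FC of -0.75 ± 0.22 (adjusted p = 0.146, edgeR) and no overlap between treated and Sham libraries, with an unadjusted p under 0.05 in all 20 alternatives and a log2FC of -0.48 with the muscle covariate. Adamts14 had a log2FC of -0.70 (adjusted p = 0.2, edgeR), with an unadjusted p over 0.05 without Sham replicate 2 (-0.65) or OVX-AS-IV-High replicate 3 (-0.60). Adamts5 had a log2FC of 0.92 (adjusted p = 0.227, edgeR), with an unadjusted p over 0.05 under the muscle covariate (0.43) and without Sham replicate 1 (0.69) or OVX-AS-IV-High replicate 2 (0.79) or 3 (0.69). In limma on log2(FPKM + 1) without a filter the unadjusted p of Adamts5 was also over 0.05 (0.50). Mmp9 had 18543, 18993 and 19891 counts in OVX-AS-IV-High, all above Sham. Its log2FC was 0.33 ± 0.14 (adjusted p = 0.266, edgeR). The unadjusted p was over 0.05 with the muscle covariate (log2FC 0.24), with upper-quartile factors (0.31) and when any library of Sham or OVX-AS-IV-High or OVX replicate 2 was left out (0.30 to 0.37). Adamts8, a proteoglycanase, had 15, 73 and 10 counts across Sham, 15, 3 and 1 across OVX, and 11, 2 and 0 across OVX-AS-IV-High, and the groups overlapped. Its log2FC was -2.95 ± 1.24 (adjusted p = 0.266, edgeR). For Adamts8 the unadjusted p was over 0.05 with the muscle covariate (log2FC -1.92) and without Sham replicate 2 (-1.51), which held 73 of its Sham counts, OVX replicate 2 (-2.95) or OVX-AS-IV-High replicate 2 (-2.61) or 3 (-2.38), and in limma on log2(FPKM + 1) (-0.28). The libraries did not overlap in 6 members (13.0%, against 19.9% of all genes), with Mmp9 higher (9.61% of all genes) and Adamts14, Adamtsl1, Adamtsl4, Timp3 and Timp4 lower (10.3% of all genes).

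**Figure D5:**
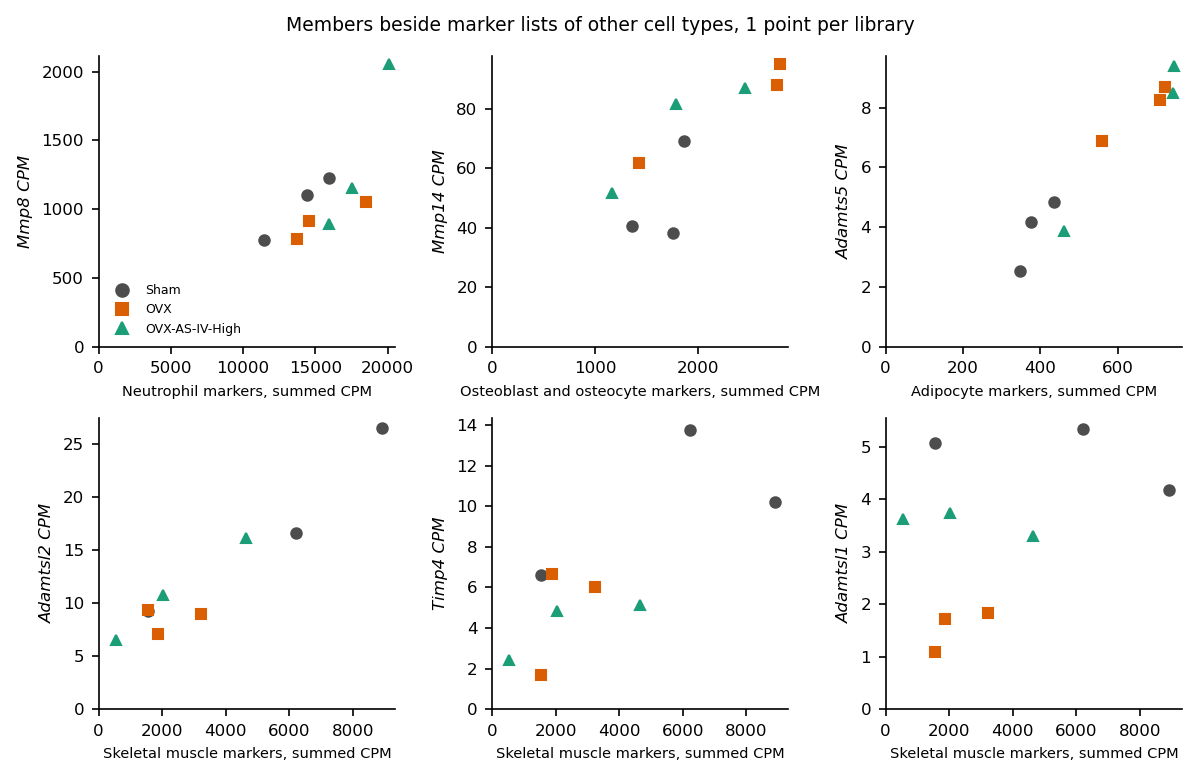
CPM of 6 member and marker-list pairs, with 1 point per library and all axes starting at 0. Adamtsl2 has its highest library where the muscle sum is 8904, whereas the 3 OVX libraries of Adamtsl1 lie lowest at muscle sums from 1541 to 3226.

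The plot of members against marker lists sets these values beside cell content. Mmp8 was highest in the library with the highest neutrophil sum (20080 CPM). Adamts5 was lowest in the library with the lowest adipocyte sum (349 CPM), and Mmp14 was highest in the library with the highest osteoblast and osteocyte sum (2796 CPM). Adamtsl1 followed the order of the muscle sum within OVX (67, 65 and 40 counts) but not within Sham or OVX-AS-IV-High, where it was lowest in the library with the most muscle RNA. Chondrocyte markers ran from 554 to 3539 CPM and osteoclast markers from 637 to 2173 CPM across libraries, with overlap between groups in both, and their part in the members' values was not tested.

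Partners of these enzymes were read by the same thresholds. Of 51 listed activators, other inhibitors, substrates and ADAM proteases, 47 were tested. In OVX vs Sham 0 were higher and 2 lower past the DEG thresholds (4.26%, against 3.11% of all genes). Eln, which encodes elastin, had 1255, 934 and 468 counts across Sham and 578, 557 and 249 across OVX, with a log2FC of -1.01 ± 0.44 (adjusted p = 0.296, edgeR). Adam33, an ADAM protease of smooth muscle and fibroblasts, had 174, 110 and 49 counts across Sham and 51, 49 and 28 across OVX, with a log2FC of -1.45 ± 0.52 (adjusted p = 0.223, edgeR). Both genes followed the order of the muscle sum within Sham and OVX.

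Between OVX-AS-IV-High and OVX 0 of the 47 passed, where 0.83% of all genes did. In OVX-AS-IV-High vs Sham 0 were higher and 3 lower (6.38%, against 3.15% of all genes in either direction), and those lower included Eln (log2FC -1.27; adjusted p = 0.2, edgeR) and Adam33 (-1.89; adjusted p = 0.139, edgeR). The collagen and aggrecan substrate genes Col1a1, Col2a1 and Acan passed the thresholds in no comparison.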

How the data were processed

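Bone mRNA libraries of 3 groups with 3 replicates each were compared. The authors filtered reads with NGS QC Toolkit, used Tophat and Bowtie2 for alignment and took gene values from eXpress. The submitters' processing notes name the build mRatBN7.2. A deposited table held whole-number counts that were not normalized, and the authors gave FPKM values for the same genes in a second table. How the estimates of eXpress became whole numbers is not given in the sources used here. The libraries were prepared with strand marking, and the strand setting of the counting is not given in the sources used here.

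Counts of 23026 genes were fitted with edgeR 4.0.16 (quasi-likelihood test, TMM, default filter with a minimum count of 10, all 9 libraries) in R 4.3.3, which left 16874 genes with a common biological coefficient of variation of 0.256. Adjusted p-values are Benjamini-Hochberg values over all genes tested. Alternatives used DESeq2 1.42.0, limma 3.58.1 on log2(FPKM + 1) and log2(FPKM + 0.1), other scaling factors and filters, a replicate block, the 2 compared groups alone, the summed skeletal muscle markers as a covariate, and each library left out in turn. On simulated data for OVX vs Sham with 3-fold changes, the DEG thresholds in edgeR called 183 of 197 changed genes (92.9%) and 225 other genes of 16662 tested. CPM were scaled with TMM factors, and plots were drawn with matplotlib 3.10.9.

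Replicate numbers were checked by the correlation of deviations from the group means. They were 0.4, 0.228 and 0.196 between OVX and OVX-AS-IV-High. They were 0.248, -0.197 and 0.321 between Sham and OVX, and 0.48, -0.256 and 0.584 between Sham and OVX-AS-IV-High. Each of the 6 libraries of OVX and OVX-AS-IV-High correlated best with its own number. This held for 3 of 6 between Sham and OVX and 4 of 6 between Sham and OVX-AS-IV-High. No pairing of rats is given in the sources used here. Muscle markers fell from replicate 1 to 3 in each group, and whether cell content gave these correlations was not tested. The main fit used no block, and values are from it unless an alternative is named. The replicate block was used only as an alternative, across all 9 libraries.

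Members, gene lists and marker lists were chosen with earlier results of these data known. Named were members with an unadjusted p under 0.05 in any comparison, the best-known enzymes and inhibitors of bone, the 5 highest members, those at no more than 3 counts, and partner genes past the DEG thresholds, of which 1 is not reported here. Mmp3, Mmp10, Mmp12, Mmp17, Mmp19, Adamts10, Adamts13, Adamtsl3 and the 3 substrate genes without a call were named after their values were seen. RefSeq gene and promoter tables of GRCr8 gave gene order and sequences, and all 50 members matched by gene identifier. Of 11 marker lists, the other 5 (macrophage, marrow stroma, endothelium, erythroid and B lineage) had a highest library between 1.46 and 1.81 times the lowest. Of the markers listed, 3 were not used because no row matched (Mylpf, Kitl and Vpreb1).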

Additional observations from a re-analysis of the deposited data

How the results depend on the processing

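Under the alternatives, the number of members past the DEG thresholds ran as follows. For OVX vs Sham (4 in the main analysis, against 3.11% of all genes), limma on log2(FPKM + 1) gave 0 with and without a filter (0.46% and 0.317% of all genes). The muscle covariate gave 2 (2.16% of all genes), Adamtsl1 and Mmp12, the latter not among the 4. Leaving out single libraries gave 2 to 10 (2.26% to 6.20% of all genes). For OVX-AS-IV-High vs OVX (1, against 0.83% of all genes), limma gave 0 with either pseudocount and without a filter. Of all genes, 0.0827% passed in limma with a pseudocount of 1, 0.62% with 0.1 and 0.0565% without a filter. Leaving out single libraries gave 1 to 3 (0.821% to 1.28% of all genes). For OVX-AS-IV-High vs Sham (2, against 3.15% of all genes), the stricter filter gave 1, Timp4 (2.395% of all genes). Timp4 was also the 1 member in limma on log2(FPKM + 1) with and without a filter (0.496% and 0.334% of all genes). The muscle covariate gave 1, Mmp17 (2.58% of all genes). Leaving out single libraries gave 0 to 5 (2.385% to 5.478% of all genes). The added pseudocount of 1 shrinks log2 differences of members with FPKM near or under 1. A cut-off of 0.58 on the absolute log2FC, added after seeing the data, gave 9, 1 and 6, where 6.96%, 2.19% and 6.92% of all genes passed. With the replicate block the numbers were 6, 1 and 3, where 4.18%, 0.907% and 4.21% of all genes passed. The signs of 5 values that did not pass the test reversed. The log2FC of Mmp8 in OVX vs Sham was 0.18 with the muscle covariate. When single libraries were left out, the log2FC of OVX vs Sham ran from -0.027 to 0.388 for Timp2 and from -0.47 to 1.62 for Mmp3, and that of OVX-AS-IV-High vs OVX from -0.49 to 0.17 for Mmp13 and from -0.62 to 0.10 for Timp4. The end of reversed sign came without OVX replicate 2 for each of the 4 genes, and Timp4 was also reversed (0.06) without OVX-AS-IV-High replicate 3. The cause of these reversals was not tested. With 3 libraries a group, p-values of single members move with 1 library, and counts of 3 or fewer carry no fold.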
